A study of Homo sapiens and Mus musculus with 20 samples.

Results

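The p53 target genes described here are MDM2, GDF15, SESN1, SESN2, TP53I3, BBC3, BAX, FAS, ZMAT3 and TNFRSF10B, 10 genes matched by their symbols among 17554 genes listed for IMR90 cells. All 10 were listed, and all 10 passed the filter on low values, in each of the 3 IMR90 experiments, which had 11994 genes in common. Bulk RNA-seq was carried out on IMR90 cells, human fetal lung fibroblasts that the study uses as a model of replicative senescence. Every library had the label WT for genotype. A485, an inhibitor of the acetyltransferase p300, was compared with the libraries titled Control2. MS-275, which blocks the class I histone deacetylases, was compared with Control3, and pyruvate with Control6, and the control libraries have the treatment label None. Each group had 2 libraries, and no library was shared between experiments. The labels give neither passage, dose nor time, although the study describes adding pyruvate to senescent IMR90 cells, and they do not say whether the 2 libraries of a group came from separate cultures, so p-values measure the spread between these libraries, which may be technical.

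p53 is a transcription factor that is held at a low level by MDM2, a ubiquitin ligase that is itself a p53 target, so that the pair forms a negative feedback loop. When p53 is stabilised, for example after DNA damage, it binds paired half-sites near its targets. In fibroblasts the pathway is best known for the growth arrest of senescence, in which p53 raises the CDK inhibitor CDKN1A (p21). The 10 genes cover other branches of the response, namely feedback (MDM2), RNA binding and splicing control (ZMAT3), a secreted stress cytokine (GDF15), sestrins that hold back mTORC1 when leucine is short (SESN1 and SESN2), a quinone oxidoreductase-like enzyme (TP53I3, also called PIG3), the mitochondrial death proteins PUMA (BBC3) and BAX, and the death receptors FAS and DR5 (TNFRSF10B). GDF15, SESN2 and TNFRSF10B are also known targets of ATF4 or CHOP, the transcription factors of the integrated stress response.

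To place the genes on the genome, a search for the p53 half-site pair was run from 2000 bases before to 3000 bases after the canonical transcript start (GENCODE version 44, hg38). The pair was taken as 2 adjoining half-sites of 10 bases with no spacer and at most 2 mismatches in 20, a pattern that reads the same on both strands. Such a pair was present at 8 of the 10 genes and in 2380 of 19970 windows of protein-coding genes (11.9%). No pair with these limits was found in the windows of SESN1 and SESN2. The best match was in the first part of ZMAT3, 1611 bases after the start, with 0 mismatches, and the pair in MDM2 lay 755 bases after the start, and both are in introns of the canonical transcript. The following 50-base stretches are shown for MDM2, the feedback gene, for ZMAT3, the closest match, for GDF15 and TP53I3, the genes with the largest changes in opposite directions after A485, and for BBC3, which did not pass the test in any experiment. Capitals mark the 20-base pair and each sequence is on the strand of its gene.
MDM2: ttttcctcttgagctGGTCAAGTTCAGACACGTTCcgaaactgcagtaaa
ZMAT3: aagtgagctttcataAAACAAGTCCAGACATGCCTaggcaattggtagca
GDF15: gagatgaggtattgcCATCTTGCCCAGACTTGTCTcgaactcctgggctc
TP53I3: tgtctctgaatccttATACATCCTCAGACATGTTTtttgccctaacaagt
BBC3: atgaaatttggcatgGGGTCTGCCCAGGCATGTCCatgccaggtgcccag

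In hg38 these stretches are chr12:68808908-68808957 (plus strand) for MDM2, chr3:179070173-179070222 (minus strand) for ZMAT3, chr19:18385293-18385342 (plus strand) for GDF15, chr2:24086766-24086815 (minus strand) for TP53I3 and chr19:47232553-47232602 (minus strand) for BBC3. The pairs at GDF15, BBC3 and TP53I3 lay upstream of the canonical start, and the BBC3 pair overlapped an exon of another transcript of that gene. The pairs at BAX, FAS and TNFRSF10B were in introns of the canonical transcripts and those at BAX and FAS touched exons of other transcripts. No binding was measured in these libraries, and a match of letters is not a bound site.

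The canonical transcripts fell into separate groups by base composition, given here because fold changes are set beside it below for pyruvate. MDM2 (chromosome 12, 68808177 to 68845544), ZMAT3 (chromosome 3, 178960121 to 179072215), SESN1 (chromosome 6, 108984309 to 109094846) and FAS (chromosome 10, 88953813 to 89029605) had 39.5%, 38.2%, 40.6% and 38.04% GC. TNFRSF10B (chromosome 8, 23020133 to 23069031) had 49.7% GC. TP53I3 (chromosome 2, 24077433 to 24085861), SESN2 (chromosome 1, 28259518 to 28282491), BAX (chromosome 19, 48954815 to 48961798), GDF15 (chromosome 19, 18374731 to 18389176) and BBC3 (chromosome 19, 47220822 to 47232766) had 59.4%, 59.6%, 60.8%, 62.9% and 69.7% GC. Exons of MDM2, SESN1, TP53I3, BBC3, FAS and TNFRSF10B overlap exons of other annotated genes, among them ACTA2 at FAS, CPM at MDM2 and FAM228B at TP53I3. The strand setting of the counting is not given in the sources used here, so reads in those stretches cannot be assigned with certainty.

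Depth ranged from 24179065 to 46971227 reads over the listed genes, with 2.77% to 6.90% of the summed values from mitochondrial genes. All 9 fibroblast markers were above 0 in every library. Their summed value was 1851320 to 2224370 in Control2 and 555042 to 667788 after A485, 876313 to 1893300 in Control3 and 766849 to 1806410 after MS-275, and 1185070 to 1274950 in Control6 and 1013600 to 1024720 after pyruvate. The part of this difference after A485 in the results below was not tested. Few markers of other cell types were listed, at most 1 of 6 epithelial, 2 of 4 endothelial and 1 of 5 immune genes. In the pyruvate experiment these were 0, 1 and 0 genes. The listed genes summed to at most 208, 203 and 25. The listed epithelial gene was at 48 to 64 in Control2 and 177 to 208 after A485. PECAM1, CDH5, PTPRC and CDH1 were among those not listed. In the MS-275 experiment the libraries numbered 2 stood apart from those numbered 1 in both groups. Transcripts above 6 kb were lower by a median log2 difference of -0.83 in Control3 and -0.82 in MS-275, and transcripts under 2 kb were higher by 0.51 and 0.52.

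Values below are read counts per gene divided by the authors' size factor of the library (normalised read counts), as mean ± SD with n = 2. They were normalised separately in each experiment, so levels are compared within an experiment. Calls required an adjusted p below 0.05 (limma, adjusted by Benjamini and Hochberg's method over every gene tested) together with a log2 fold change beyond 1 in either direction. Fold changes are on the scale of log2(value + 1), treated minus control.

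**Figure D1:**
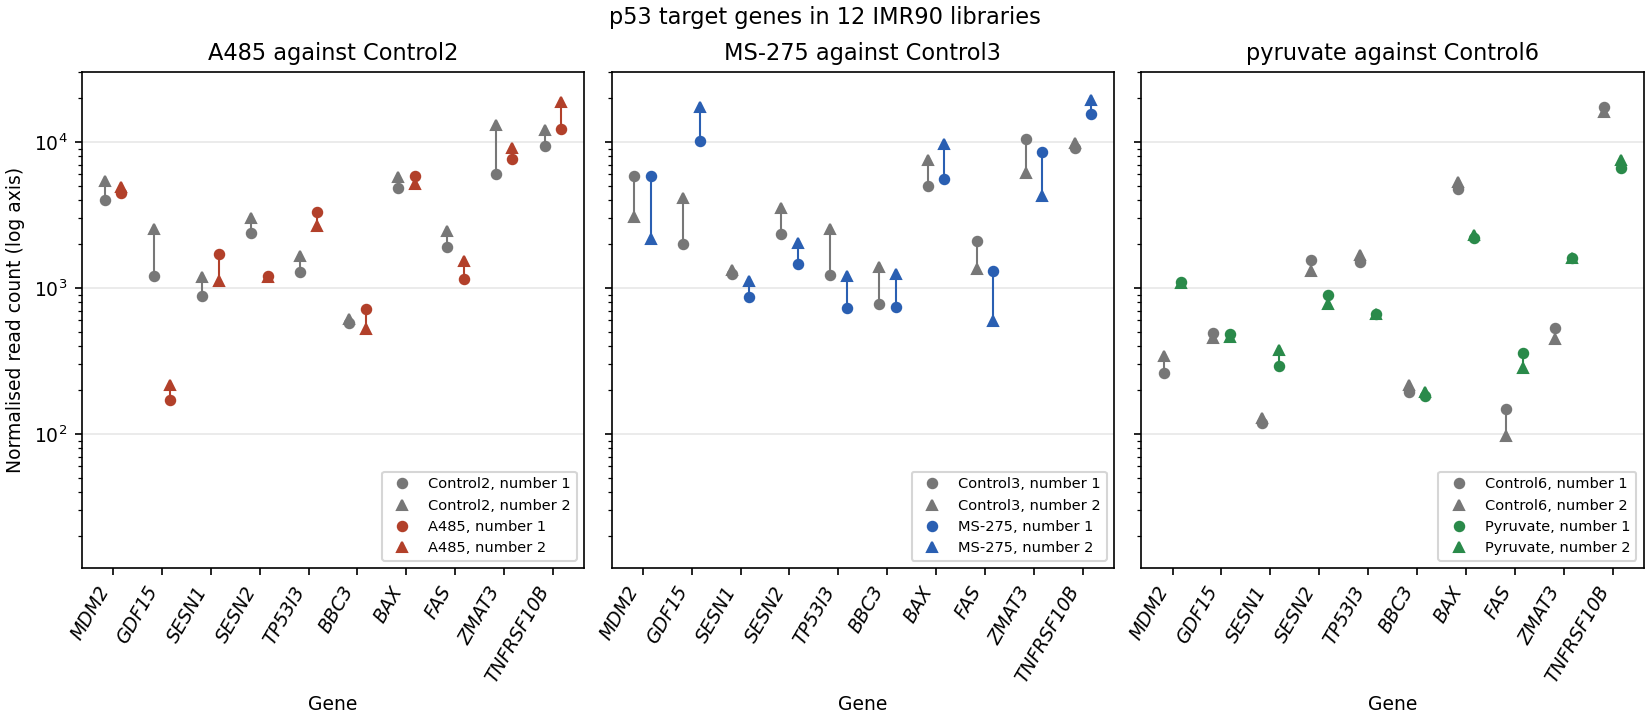
Normalised read count (log axis) of each of the 10 genes in every library, with 1 panel for each experiment; grey symbols are control and coloured symbols treated libraries, circles are number 1, triangles number 2, and a line joins the 2 libraries of a group. GDF15 sits between 1203 and 2537 in Control2 and between 170 and 217 after A485, and MDM2 between 261 and 344 in Control6 and between 1077 and 1106 after pyruvate.

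The order of the genes by level was set with values per kilobase of the canonical transcript. In Control2 BAX stood first at 6683 ± 815 and TNFRSF10B second at 2681 ± 500. GDF15 at 1558 ± 786, ZMAT3 at 1074 ± 563 and TP53I3 at 883 ± 158 followed, and these neighbours did not differ beyond their spread. SESN2, MDM2 and FAS lay between 591 and 782, BBC3 was at 321 ± 15.2, and SESN1 was last at 182 ± 39.1. After A485 GDF15 moved from rank 3 to rank 10 at 161 ± 27.7. After MS-275 it moved from rank 2, at 2545 ± 1250, to rank 1, at 11418 ± 4209. It did not differ beyond the spread from TNFRSF10B in Control3 (2356 ± 125, rank 3) or from BAX after MS-275 (9562 ± 3561, rank 2). In Control6 BAX was again first at 6363 ± 527 and SESN1 last at 21.8 ± 1.15, with FAS at 33.3 ± 10.1, MDM2 at 40.4 ± 7.81 and ZMAT3 at 54.8 ± 6.26 among the lowest.

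To ask whether the p53 program changed when p300, a coactivator of p53, was inhibited, A485 was compared with Control2. GDF15 and SESN2 were lower and TP53I3 was higher after A485, whereas MDM2, BAX and BBC3 stayed within 0.05 log2 units of control and did not pass the test. Thus 3 of the 10 genes were called, 1 higher and 2 lower, beside 10.4% of the 16084 genes tested (3.31% higher and 7.06% lower). The median log2 fold change of the 10 genes was 0.02 and that of all genes 0.01. For 5 of the 10, both A485 libraries lay on the same side of both control libraries, beside 61% of all genes. A lower value can come from less RNA per cell or from fewer cells that express the gene, which bulk libraries cannot tell apart.

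GDF15, a TGF-β family cytokine secreted by stressed cells, had the largest change. It measured 1203 and 2537 in the Control2 libraries and 170 and 217 in the A485 libraries. All A485 values were far below the lower control. The mean fell from 1870 ± 944 to 194 ± 33.3, or 9.65-fold, with a log2 fold change of -3.18 (SE 0.39, adjusted p = 0.00741, limma). SESN2 measured 2385 and 3027 in control and 1206 and 1188 after A485, without overlap of the groups. Its log2 fold change was -1.17 (SE 0.19, adjusted p = 0.0173, limma), or 2.26-fold lower. The paralog SESN1 measured 874 and 1187 in control and 1702 and 1121 after A485, and these groups overlapped (log2 fold change 0.44, adjusted p = 0.339, limma).

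TP53I3 measured 1276 and 1645 in Control2 and 3322 and 2674 after A485. The groups did not overlap and the mean was 2.05-fold higher (log2 fold change 1.04, SE 0.21, adjusted p = 0.0313, limma). The 3 calls rested on both A485 libraries, since none of the 10 genes was called without A485 replicate 1 or without A485 replicate 2, where 229 and 301 genes in all passed the adjusted p, although the GDF15 log2 fold change was -3.001 and -3.35 there. Without the intensity trend in the variance estimate GDF15 alone was called, and with equal library totals SESN2 was at -0.77 and was not called.

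The death receptors moved apart from each other without a call. FAS measured 1902 and 2464 in control and 1151 and 1530 after A485, with both treated values below control (log2 fold change -0.71, adjusted p = 0.0987, limma). TNFRSF10B measured 9305 and 12132 in control and 12316 and 18899 after A485, with both treated values above control (log2 fold change 0.52, adjusted p = 0.241, limma). Neither difference passed the test.

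MDM2 measured 4030 and 5416 in control and 4441 and 4934 after A485, with the treated libraries inside the control range. Its log2 fold change was 0.00 with a 95% interval from -0.49 to 0.49. BAX measured 4854 and 5771 in control and 5810 and 5158 after A485 (interval from -0.38 to 0.48). BBC3 measured 574 and 613 in control and 712 and 526 after A485 (interval from -0.55 to 0.65). ZMAT3 varied more, with 6037 and 13151 in control and 7638 and 9152 after A485, so that its interval ran from -0.99 to 0.80.

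Other p53 targets were also split after A485. Of 28 measured, 1 was called higher and 3 lower, with a median log2 fold change of -0.18, beside 10.4% of all genes. None was called without A485 replicate 1, without A485 replicate 2 or without the intensity trend, 2 were called without each Control2 library in turn, and 2 (PMAIP1 and TIGAR) when the dependence on transcript length and GC content was fitted and removed in each library. TIGAR, which lowers glycolytic flux, rose from 510 ± 38.9 to 1073 ± 29.1 (log2 fold change 1.07, adjusted p = 0.0251, limma). PLK2, a polo-like kinase, fell from 8053 ± 4600 to 2179 ± 655, PMAIP1 (NOXA, a BH3-only death protein) from 3704 ± 761 to 1610 ± 201, and AEN, an apoptosis-enhancing nuclease, from 3784 ± 482 to 1764 ± 493. TP53INP1, RRM2B, PPM1D and DDB2 had log2 fold changes of 0.97, 0.94, 0.51 and -0.70 and did not pass the test. CDKN1A measured 29669 and 57640 in control and 30271 and 23373 after A485, which overlapped (log2 fold change -0.64, adjusted p = 0.276, limma).

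Among 15 p53 regulators none was called after A485 by limma. An unadjusted p under 0.05 was found for 1 of them, beside 4949 of all 16084 genes tested. MDM4, which binds and restrains p53, measured 1294 and 792 in control and 1499 and 731 after A485. By contrast, 6 of 12 ATF4 and CHOP targets (list median -2.02) were called, all lower, beside 10.4% of all genes called and 7.06% called lower. The called targets included the cystine transporter gene SLC7A11 (15450 ± 3820 to 185 ± 114), the serine synthesis genes PSAT1 (13405 ± 2059 to 1467 ± 218) and PHGDH (8050 ± 1364 to 1087 ± 334), and CHAC1, which degrades glutathione (2303 ± 148 to 307 ± 13.2). GDF15 and SESN2, the called genes of the p53 list that fell, are known targets of the same factors, and the part of that pathway in their change was not tested. TNFRSF10B, which is also such a target, lay above control in both A485 libraries, at 0.52. None of 13 partners of the 10 genes, such as BCL2 family members and GATOR2 subunits, was called, and 2 had an unadjusted p under 0.05.

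**Figure D2:**
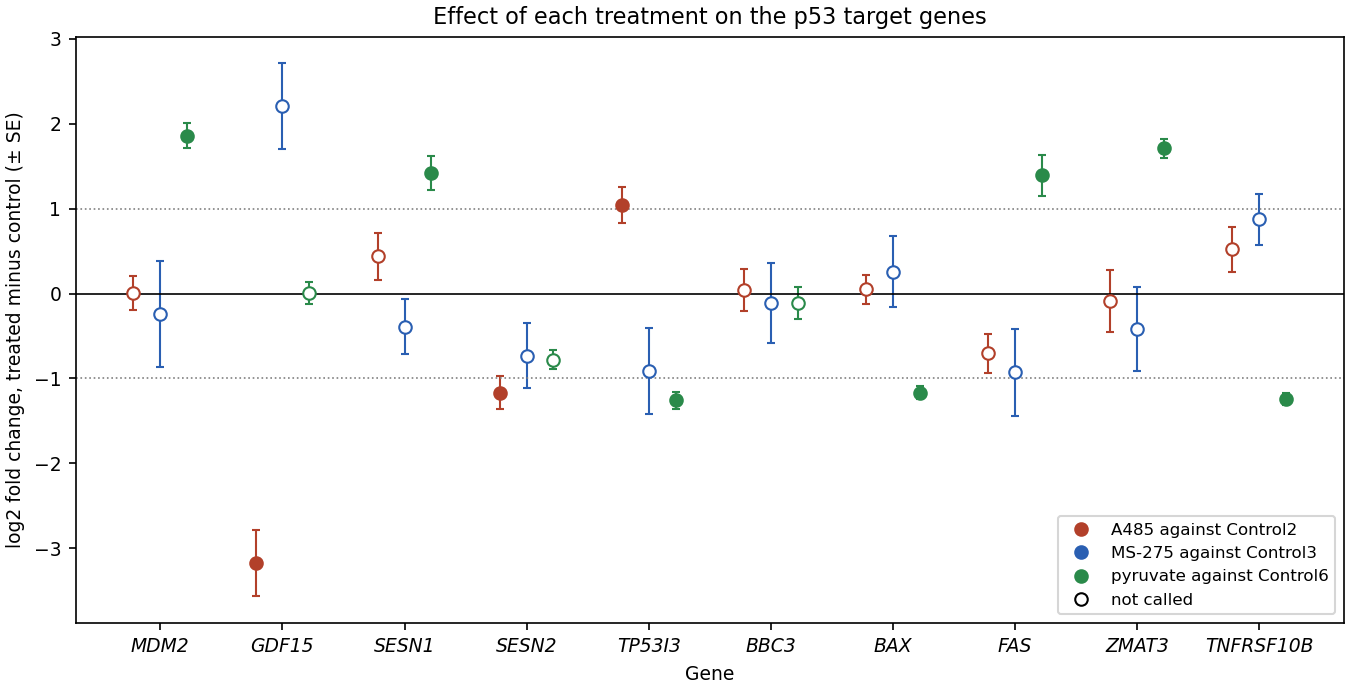
log2 fold change (treated minus control, ± SE from limma) of each of the 10 genes in the 3 comparisons; filled points were called, open points were not, and dotted lines mark the fold minimum of 1. GDF15 lies at -3.18 after A485, 2.21 after MS-275 and 0.01 after pyruvate, whereas MDM2, ZMAT3, SESN1 and FAS are above 1 only after pyruvate.

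To ask whether the same genes changed when class I histone deacetylases were inhibited, MS-275 was compared with Control3. None of the 10 genes was called by limma, and none of the 15883 genes tested was called either (0%). At an unadjusted p under 0.05 there were 2 of the 10 genes and 1730 of all genes. GDF15 and TNFRSF10B were nevertheless the genes with both MS-275 libraries above both controls, and SESN1, SESN2, TP53I3 and FAS those with both below. That is 6 of 10 genes without overlap, beside 38.9% of all genes.

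GDF15 measured 1994 and 4115 in Control3 and 10130 and 17273 after MS-275. Both treated libraries were well above the higher control, and the means were 4.49-fold apart (log2 fold change 2.21, SE 0.50, adjusted p = 0.27, limma). TNFRSF10B measured 9068 and 9773 in control and 15514 and 19308 after MS-275 (log2 fold change 0.88, SE 0.30, adjusted p = 0.4, limma). The gap between its groups was wider than the spread within either. TP53I3 measured 1223 and 2538 in control and 732 and 1199 after MS-275 (log2 fold change -0.91, adjusted p = 0.644, limma). SESN2 measured 2331 and 3538 in control and 1461 and 2045 after MS-275 (log2 fold change -0.73, adjusted p = 0.618, limma).

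Because the libraries numbered 2 differed from those numbered 1 in both groups, the differences were also taken within each number and are given as values without a test. The sign was the same within both numbers for 9 of the 10 genes, beside 79% of all genes. GDF15 was higher by 2.34 and 2.07 log2 units and TNFRSF10B by 0.78 and 0.98. TP53I3 was lower in both, at -0.74 and -1.08, as were FAS at -0.68 and -1.18 and SESN2 at -0.67 and -0.79. ZMAT3 gave -0.30 and -0.53, SESN1 -0.53 and -0.26, BBC3 -0.07 and -0.15, and BAX 0.16 and 0.36. GDF15 was the only one of the 10 beyond 1 log2 unit upwards within both numbers, as were 6.81% of all genes.

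**Figure D3:**
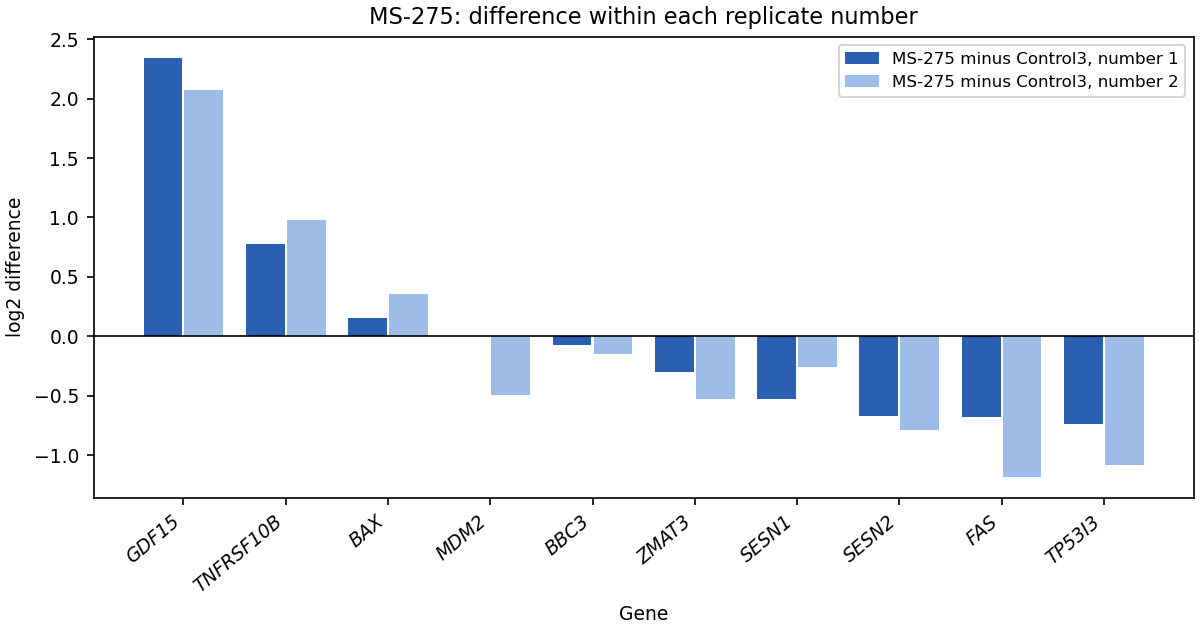
log2 difference between the MS-275 and the Control3 library of the same replicate number for the 10 genes, ordered by number 1 (dark bars); light bars are number 2. GDF15 reaches 2.34 and 2.07, and MDM2 is the only gene whose signs differ, with 0.01 and -0.49.

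Each of the 10 genes differed between library numbers in the same direction in both groups of this experiment. MDM2, whose transcript is 7.49 kb, measured 5818 and 3043 in Control3 and 5842 and 2166 after MS-275, so that both number 2 libraries were low. ZMAT3, at 8.94 kb, measured 10426 and 6116 in control and 8467 and 4235 after MS-275. FAS, at 3.70 kb, measured 2080 and 1356 in control and 1301 and 598 after MS-275. BAX and BBC3 went the other way, since BAX measured 5027 and 7486 in control and 5600 and 9604 after MS-275, and BBC3 781 and 1387 in control and 742 and 1251 after MS-275. SESN1, at 5.66 kb, measured 1240 and 1327 in control and 860 and 1109 after MS-275, so that number 2 was higher although the transcript is longer than that of FAS, and TNFRSF10B, also longer than FAS, was higher in number 2 as well. The 95% interval for MDM2 ran from -1.85 to 1.37 and that for BBC3 from -1.33 to 1.11, so that 2-fold changes in either direction were not detectable for these genes.

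Of 28 other p53 targets none was called by limma after MS-275, and 2 had an unadjusted p under 0.05. CDKN1A measured 39222 and 60630 in control and 68365 and 135613 after MS-275, with both treated values above both controls (log2 fold change 0.98, adjusted p = 0.583, limma). PMAIP1, SUSD6 and DRAM1 also lay above control in both libraries, with log2 fold changes of 0.78, 0.75 and 0.35. TRIM22, SPATA18, PIDD1 and TIGAR lay below, at -1.79, -1.23, -0.90 and -0.73. MDM4 overlapped between groups (log2 fold change -0.60). No regulator, ATF4 and CHOP target or partner was called by limma, nor was any of the 15883 genes tested. At an unadjusted p under 0.05 there were 2 of 15, 2 of 12 and 1 of 13, beside 1730 of all genes. The list medians were -0.36, -0.37 and -0.29. Calls with the replicate number as a block are given with the processing below.

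To ask how the p53 targets stood after pyruvate, these libraries were compared with Control6. MDM2, ZMAT3, SESN1 and FAS were higher and TP53I3, TNFRSF10B and BAX were lower after pyruvate. Thus 7 of the 10 genes were called, 4 higher and 3 lower, beside 54.1% of the 12013 genes tested (31% higher and 23.1% lower). Since calls took in most of the transcriptome, the count for the 10 genes stands on a high background. For 8 of the 10 genes the groups did not overlap, beside 90.5% of all genes.

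MDM2 measured 261 and 344 in Control6 and 1106 and 1077 after pyruvate, with no overlap, a 3.61-fold difference (log2 fold change 1.86, SE 0.14, adjusted p = 2.75e-07, limma). ZMAT3 measured 529 and 450 in control and 1596 and 1603 after pyruvate (log2 fold change 1.71, adjusted p = 5.85e-08, limma). SESN1 measured 119 and 128 in control and 294 and 375 after pyruvate (log2 fold change 1.42, adjusted p = 4.59e-05, limma). These feedback, RNA-binding and nutrient-sensing genes rose 2.71- to 3.61-fold, but all 3 directions turned on removal of that trend with transcript length and GC content, to -0.18, -0.35 and -0.49.

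FAS measured 149 and 97 in Control6 and 357 and 282 after pyruvate (log2 fold change 1.39, adjusted p = 0.00024, limma), and was at -0.40 after the same removal. TNFRSF10B, the other death receptor, measured 17332 and 16051 in control and 6612 and 7537 after pyruvate, 2.36-fold lower (log2 fold change -1.24, SE 0.07, adjusted p = 2.31e-08, limma). It was -1.19 after removal of this trend, the only one of the 7 calls that was kept there, when 28.9% of all genes were called. BAX, the pore-forming death protein, measured 4763 and 5355 in control and 2194 and 2300 after pyruvate (log2 fold change -1.17, adjusted p = 6.82e-08, limma). TP53I3 measured 1501 and 1689 in control and 667 and 663 after pyruvate (log2 fold change -1.26, adjusted p = 3.29e-07, limma). Without the trend BAX and TP53I3 were at -0.00097 and -0.17 and were not called.

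SESN2 measured 1559 and 1301 in Control6 and 889 and 777 after pyruvate, which passed the adjusted p but not the fold minimum, so that 8 of the 10 genes passed the adjusted p, beside 80.9% of all genes (log2 fold change -0.78, adjusted p = 6.45e-05, limma). The direction of SESN2 turned after removal of the trend. GDF15 measured 490 and 452 in control and 486 and 461 after pyruvate, with a 95% interval from -0.28 to 0.29. BBC3 measured 193 and 215 in control and 183 and 195 after pyruvate (interval from -0.53 to 0.31). Neither gene was called, and both were called higher after removal of the trend, at 1.24 and 1.38.

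The fold changes after pyruvate followed base composition across all genes. Spearman's rho between log2 fold change and GC content was -0.72 over 11888 genes, against -0.11 for A485 and -0.02 for MS-275, a description across genes of the same libraries. With transcript length rho was 0.33 after pyruvate, against 0.0049 for A485 and 0.0037 for MS-275. The trend removed above was fitted on GC content and length together, so their parts in it are not separated. With the genes in 10 bins of GC content, the median log2 fold change was 1.72 in the lowest bin and -1.21 in the highest. The 4 genes called higher were the 4 with the lowest GC content of the list (38.04% to 40.6%), and the 3 called lower had 49.7% to 60.8%. GDF15 at 62.9% and BBC3 at 69.7% lay above the median of genes of like composition and TNFRSF10B at 49.7% lay below it. Whether composition itself set these values was not tested, since the group and the composition shift cannot be told apart in 2 libraries against 2.

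**Figure D4:**
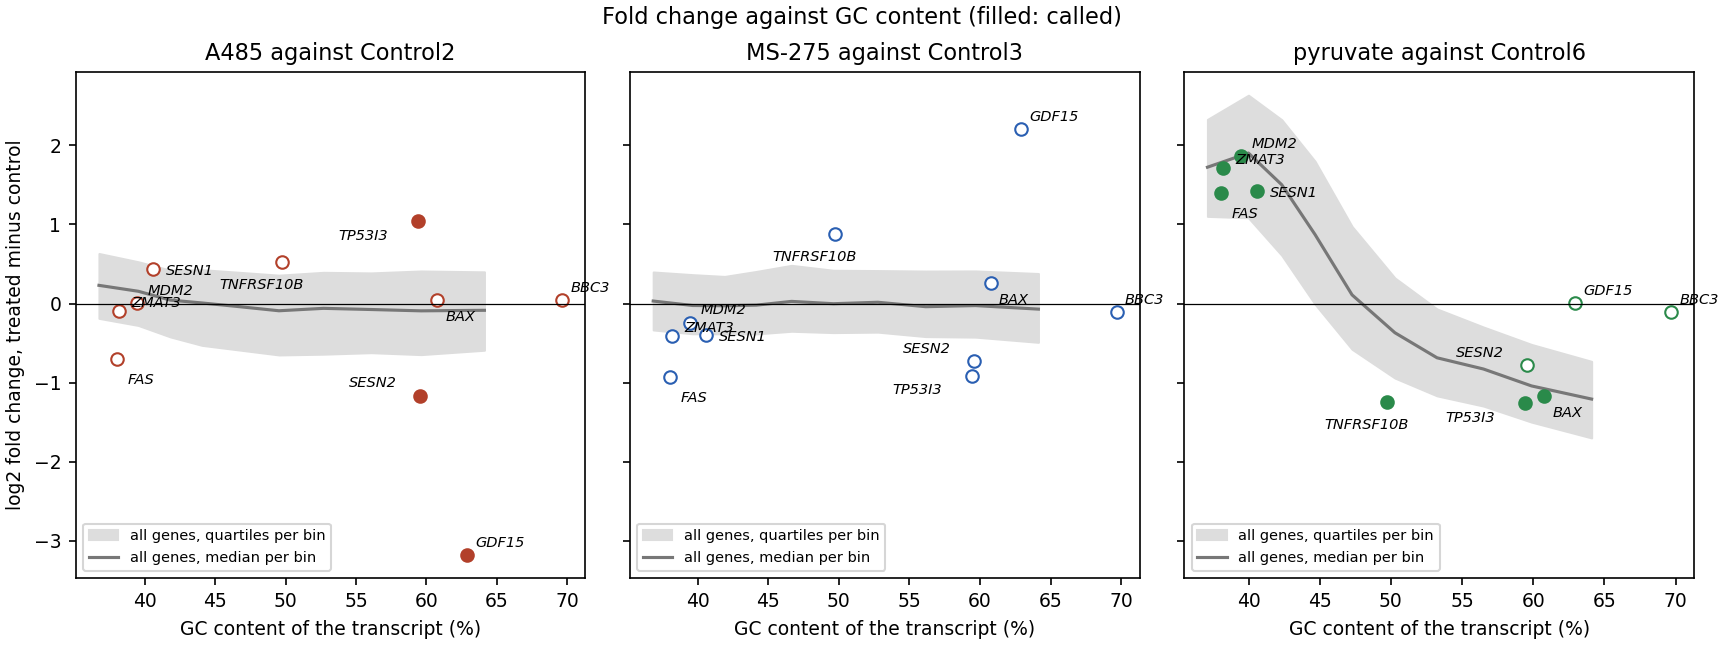
log2 fold change (treated minus control) of the 10 genes against the GC content of the canonical transcript, with 1 panel for each comparison; the grey line and band are the median and quartiles of all genes in 10 bins of GC content, and filled points were called. After pyruvate the grey line falls from 1.72 to -1.21 and most of the 10 genes lie along it, whereas after A485 and MS-275 it stays close to 0.

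Other p53 targets went in both directions after pyruvate. Of 28 targets 9 were called higher and 5 lower, with a median log2 fold change of 0.22, a share close to the 54.1% of all genes (31% higher and 23.1% lower). APAF1, the apoptosome scaffold, rose from 107 ± 43.5 to 1236 ± 42.3 and TP53INP1 from 180 ± 15.05 to 1231 ± 1.66, while CCNG1 (cyclin G1) rose from 621 ± 44.4 to 3256 ± 12.8 and TIGAR from 60.4 ± 13.3 to 244 ± 16.9. CDKN1A fell from 35983 ± 1110 to 9830 ± 55.9 (log2 fold change -1.87, adjusted p = 1.67e-10, limma), and PLK3, BTG2 and POLH fell with log2 fold changes of -1.40, -1.32 and -1.21. After removal of the trend 4 of the 28 targets were called, 2 in each direction, beside 28.9% of all genes, with CDKN1A at -0.87 and APAF1 and POLH among the calls.

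Among the regulators, MDM4 rose from 118 ± 10.5 to 664 ± 2.31. Altogether 9 of 15 regulators were called, all higher, with a median of 1.45, beside 54.1% of all genes called and 31% called higher. The others were SIRT1, ATR, CHEK1, USP7, RCHY1, TP53BP1, EP300 and ATM, at 3.59, 2.77, 2.38, 2.05, 1.93, 1.75, 1.45 and 1.37. Without the trend 4 of 15 were called, beside 28.9% of all genes, and ATM turned to -0.72. Of 11 ATF4 and CHOP targets tested, PSAT1, PHGDH, DDIT3 (CHOP itself) and VLDLR were called higher, at 3.63, 2.15, 1.56 and 1.54. That is 4 of 11, beside 31% of all genes called higher. Without the trend 7 of the 11 were called, all higher, beside 1765 of 11888 genes called higher. Their list median was then 1.15, and VLDLR was not among the calls at -0.084. Among 11 partners tested 2 were called higher and 4 lower, beside 31% and 23.1% of all genes. The survival gene MCL1 was at 1.85, its relative BCL2L1 at -1.46, the death effector BAK1 at -1.68 and the decoy receptor TNFRSF10D at -1.04. Without the trend 2 partners were called in each direction, beside 1765 higher and 1675 lower of 11888 genes. BCL2L1 and BAK1, at -0.54 and -0.64, were no longer called.

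**Figure D5:**
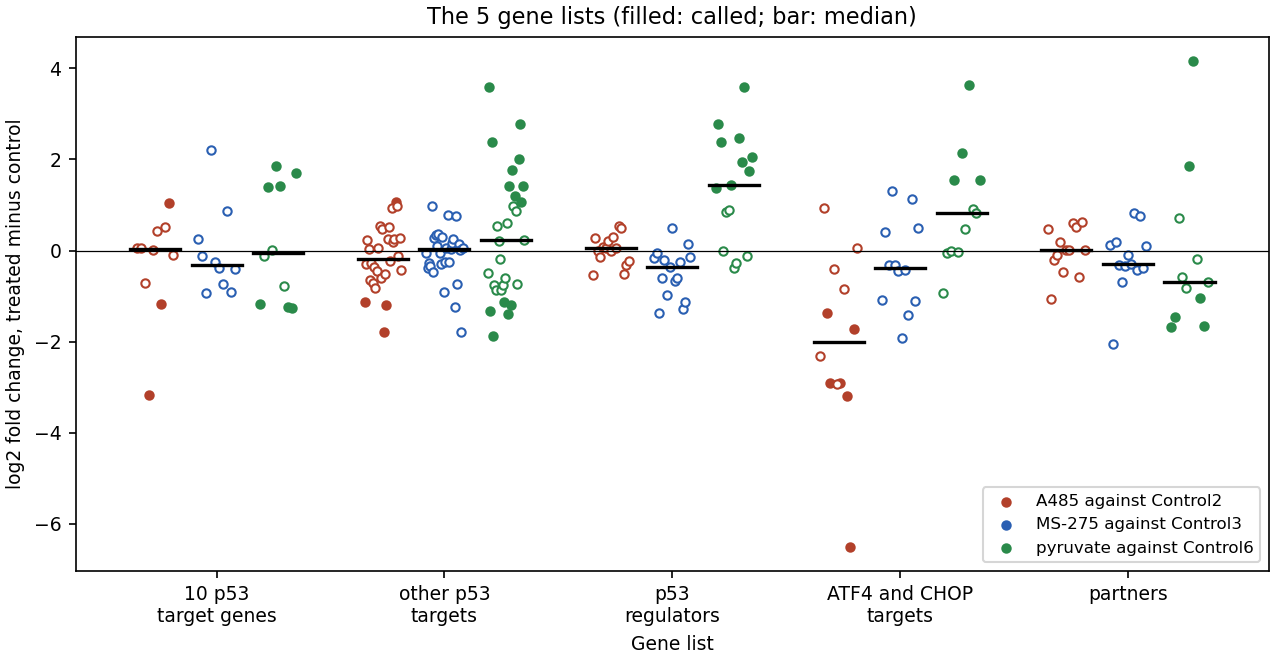
log2 fold change (treated minus control) of every tested gene in the 10 p53 target genes and 4 related lists, for the 3 comparisons; filled points were called and bars are list medians. After A485 the ATF4 and CHOP targets have a median of -2.02 against 0.02 for the 10 genes, and after pyruvate the regulators have a median of 1.45.

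Treatment effects were then set against each other gene by gene as a difference of differences over 8 libraries. Between A485 and MS-275 only GDF15 differed, by -5.38 log2 units (SE 0.70, adjusted p = 0.0108, limma), which is 1 of 10 genes beside 3.81% of 15130 genes. TP53I3, at 1.04 after A485 and -0.91 after MS-275, differed by 1.95 with a 95% interval from 0.58 to 3.32 and did not pass (adjusted p = 0.138, limma). The other intervals held 0, for example from -1.41 to 1.90 for MDM2.

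Between A485 and pyruvate 8 of the 10 genes differed, beside 65.4% of 11993 genes. The differences were -1.86 for MDM2, -1.80 for ZMAT3, -2.10 for FAS, -0.98 for SESN1 and -3.18 for GDF15, and 2.30 for TP53I3, 1.76 for TNFRSF10B and 1.22 for BAX, with adjusted p (limma) between 7.49e-05 and 0.0409. With the trend on length and GC removed, those of MDM2, ZMAT3 and SESN1 turned to 0.28, 0.32 and 1.01. Of these only SESN1 passed there, in the opposite direction (adjusted p = 0.0447, limma). The differences of FAS and BAX shrank to -0.44 and 0.22 and no longer passed (adjusted p = 0.403 and 0.275, limma). SESN2, lower after both treatments before removal of the trend, did not differ between them (difference -0.39, interval from -0.92 to 0.14), nor did BBC3 (0.16, interval from -0.53 to 0.84) at this precision. With the trend removed both were among the 6 genes that differed.

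Between MS-275 and pyruvate 6 of the 10 genes differed, beside 41.1% of 12005 genes. GDF15 differed by 2.2, TNFRSF10B by 2.12 and BAX by 1.43, and ZMAT3, FAS and SESN1 by -2.13, -2.32 and -1.81, with adjusted p (limma) between 0.00152 and 0.0364. With the trend removed SESN1 turned to 0.090, and BAX (0.20), FAS (-0.52) and ZMAT3 (-0.12) no longer passed. MDM2 differed by -2.10 and missed the threshold (adjusted p = 0.0533, limma). Only GDF15 and TNFRSF10B passed both in this test and with the trend removed.

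The genes most like MDM2 across the 12 IMR90 libraries were found by the root mean square distance of log2 values centred within each experiment, over 11988 other genes tested in all 3 experiments. USP8 and SEC63 were nearest, each at 0.10, followed by TENT2 at 0.12, against a median distance of 0.82 over all genes. Like MDM2, these genes had log2 fold changes near 0 after A485 (0.18, -0.10 and 0.20) and of 1.85, 1.87 and 1.90 after pyruvate. Within the p53 list ZMAT3 was nearest to MDM2, at 0.23 and rank 131, followed by FAS at 0.40 and SESN1 at 0.50. GDF15 was the farthest at 1.42, rank 11552. No trend on transcript length and GC content was removed before this distance was taken. MDM2, ZMAT3, FAS and SESN1 have the lowest GC content of the list, and their rises after pyruvate turned on removal of that trend. In GC bins 1 and 2, the lowest, the bin medians after pyruvate were 1.72 and 1.90. The shift between library numbers in the MS-275 experiment was also left in. The part of composition and length in this nearness was not tested.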

How the data were processed

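RNA was extracted with TRIzol and sequenced as paired ends. The authors trimmed reads with Trim Galore (version 0.6.10), aligned them to hg38 with HISAT2 (version 2.2.1), processed them with SAMtools (version 1.7), counted them per gene with featureCounts (version 2.0.6) and normalised them with DESeq2 (version 1.34.0). What was deposited is a signal, the reads counted per gene over the size factor of the library. Annotation and strand setting are not given in the sources used here. Values were whole multiples of 1 read within 0.01 reads in 100% of cases by a direct search for the value of 1 read. A second check did not find that value in some libraries of the MS-275 and pyruvate experiments, so count tests were run for A485 only. Over all genes the spread between libraries was larger than counting error at these depths. For single genes it need not be, as TP53I3 measured 667 and 663 after pyruvate, from 678 and 718 reads. Muscle libraries were not used here.

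Genes whose values averaged 10 or more over an experiment's 4 libraries were tested on log2(value + 1) with limma (version 3.58.1, R version 4.3.3), eBayes with an intensity trend, two-sided, without covariates. A log2(value + 1) fold change understates that of low genes. Differences between effects were contrasts over 8 libraries, called at an adjusted p under 0.05. Alternatives covered pseudocounts of 0.1 and 10, filters, fold minimums, scalings, the variance trend, the replicate block, removal of a spline trend (5 degrees of freedom) on transcript length and GC content (annotated for 98.4% to 99% of listed genes), each library left out, and, on recovered reads for A485, edgeR (version 4.0.16) and DESeq2 (version 1.42.0). The limma test was also run on simulated counts with independent libraries and a common spread for all genes. Those counts held neither the shift between library numbers nor a GC trend, so they cannot show how the test behaves with either. No pair of replicates agreed within sampling noise (chi-square per gene 4.54 to 472).

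The members and gene lists were chosen with earlier results of these data known. All 10 members are named. CDKN1A and MDM4 are named in each comparison, with the 4 largest rises and 4 largest falls among other p53 targets whose mean reached 100 in the higher group and whose groups did not overlap, called regulators, and up to 4 called genes by smallest p of the ATF4 and CHOP targets and of the partners. Of the genes so chosen, 1 is not reported here, and list counts keep it. Markers in the depth paragraph named as not listed are examples. Tables and plots were made in Python 3.11.15 with matplotlib 3.10.9, pandas 2.3.3, scipy 1.17.1 and numpy 2.4.6.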

Additional observations from a re-analysis of the deposited data

Results flagged for a closer look

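Effects that differed between treatments by the limma contrast were singled out, 15 values in all, each as the log2 effect of the first treatment minus that of the second. Between A485 and MS-275 it was GDF15 at -5.38. Between A485 and pyruvate these were MDM2 at -1.86, GDF15 at -3.18, SESN1 at -0.98, FAS at -2.10, ZMAT3 at -1.80, TP53I3 at 2.30, TNFRSF10B at 1.76 and BAX at 1.22. With the length and GC trend removed MDM2, ZMAT3, FAS and BAX did not pass, and SESN1 passed in the opposite direction, at 1.01. SESN1 also missed the threshold with equal library totals (adjusted p = 0.0609, limma) and without the intensity trend (adjusted p = 0.0533, limma). With quantile normalization its difference was only -0.26 (adjusted p = 0.553, limma). With 1 library left out the SESN1 difference ranged from -1.28 to -0.68. Between MS-275 and pyruvate these were GDF15 at 2.2, SESN1 at -1.81, FAS at -2.32, ZMAT3 at -2.13, BAX at 1.43 and TNFRSF10B at 2.12. Of these only GDF15 and TNFRSF10B also passed with the trend removed. Groups of 2 libraries are too small for a test of single libraries that lie far from the rest.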

How the results depend on the processing

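The number of the 10 genes called after A485 was 3, and it was 1 (GDF15) without the intensity trend, 2 (GDF15 and TP53I3) with equal library totals and 0 to 2 with 1 library left out. Of all genes, 258 of 16084 were called higher and 582 lower without the intensity trend. With equal library totals 1680 of 16078 were called higher and 899 lower. edgeR and DESeq2 on recovered reads called the same 3 genes. Neither was run for the other IMR90 experiments, for the reason given with the processing. Equal library totals and quantile normalization moved the all-gene median to 0.40 and 0.12 after A485, to -0.15 and -0.03 after MS-275, and to 0.30 and -0.17 after pyruvate. Directions that turned after A485 were those of ZMAT3 (0.30 and 0.24) under these scalings, of CDKN1A (0.12) with quantile normalization and of MDM2 (-0.0090) with DESeq2. After pyruvate the count was 7, and it was 4 with equal totals, 3 with quantile normalization and 3 with the length and GC trend removed, with or without the replicate block. Of all 12013 genes, 4402 were called higher and 1741 lower with equal totals, and 3143 and 3228 with quantile normalization. With the trend removed 28.9% of all genes were called. Equal totals turned BBC3 (0.20), and quantile normalization turned GDF15 (-0.38). Removal of the trend, also with the block, turned MDM2 (-0.18), SESN1 (-0.49), SESN2 (0.067), BBC3 (1.38), FAS (-0.40), ZMAT3 (-0.35), ATM (-0.72) and VLDLR (-0.084), and the A485 minus pyruvate differences of MDM2 (0.28), SESN1 (1.01) and ZMAT3 (0.32) and the MS-275 minus pyruvate difference of SESN1 (0.090). The cause was not tested.

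With the replicate number as a block, 1 of the 10 genes (GDF15, adjusted p = 1.81e-10, limma) was called after MS-275, also with the trend removed, beside 13.7% of all genes, and 7 of 10 passed the adjusted p alone beside 39.3%. The block also gave calls for 2 of 28 other p53 targets, 3 of 15 regulators and 1 of 13 partners after MS-275, all lower. Of 12 ATF4 and CHOP targets, 2 were called higher and 3 lower with it. The block leaves few residual degrees of freedom in 4 libraries, so its p-values rest largely on the variance that eBayes shares across genes. The labels do not say that numbers pair libraries. The deviations of same-numbered libraries correlated at r = 0.73 in the MS-275, 0.32 in the A485 and 0.00 in the pyruvate experiment, and 2 pairs cannot show a pairing. The block left the calls at 3 of 10 after A485 and 7 of 10 after pyruvate. Genes that differed between A485 and MS-275 numbered 2 (GDF15 and TP53I3) with the block, with the trend removed and with the block and the trend removed. Beside them stood 4401 of 15130, 1135 of 14916 and 5002 of 14916 genes in these settings. Between MS-275 and pyruvate the differing members numbered 3 with quantile normalization, 3 with the trend removed, 7 with the block and 5 with the block and the trend removed. Of all genes, 4478 of 12005, 4141 of 11880, 8949 of 12005 and 7561 of 11880 differed in these settings.

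Leaving out 1 library gave 0 to 1 calls after MS-275 (1, GDF15, without Control3 replicate 2) and 7 after pyruvate. Genes that differed numbered 0 to 1 between A485 and MS-275 (0 without A485 replicate 1), 7 to 9 between A485 and pyruvate and 2 to 7 between MS-275 and pyruvate (2 or 3 without any one pyruvate or Control6 library). Where a lone library remained, it was assumed to vary like the other groups. Values that changed sign without 1 library were, after A485, MDM2 (-0.21 to 0.22), BBC3 (-0.17 to 0.26), BAX (-0.076 to 0.17), ZMAT3 (-0.65 to 0.47) and MDM4 (-0.47 to 0.57), after MS-275 MDM2 (-0.96 to 0.47), BBC3 (-0.53 to 0.30), BAX (-0.13 to 0.65), ZMAT3 (-0.91 to 0.084) and MDM4 (-1.26 to 0.072), and after pyruvate GDF15 (-0.051 to 0.064). With 2 libraries a group, precision over all genes is set more by the spread between libraries than by depth.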
